A study of Mus musculus with 36 samples.

Results

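Phase II enzymes make drugs, hormones and bile pigments water-soluble by attaching a polar group to them, and 3 of their gene families were followed here in mouse liver: the glutathione S-transferases (GSTs), the UDP-glucuronosyltransferases (UGTs) and the sulfotransferases (SULTs). The rule that picks the members uses the gene symbol and no measured value. They were the GSTs of the alpha, mu, pi, theta, kappa, omega and zeta classes, the UGTs of families 1 to 3 and the SULTs of families 1 to 5. This rule found 53 of the 18591 genes of the table, namely 21 GSTs, 20 UGTs and 12 SULTs.

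RNA was sequenced from livers of C57BL/6 mice, with 3 libraries in each of 4 groups. The groups were mice with a YAP transgene and no Tet1 (Tet1 -/- per the labels) that received decitabine, mice of that genotype without decitabine (Tet1 KO YAP Tg), mice with the YAP transgene alone (YAP Tg), and wild type mice (Control). All groups, the Control mice included, drank doxycycline at 50 mg/L, and decitabine was injected at 0.5 mg/kg a day for 10 days from an age of 1 month. YAP is the co-activator that the Hippo pathway holds back, TET1 oxidises methylated cytosine, and decitabine lowers DNA methylation once it is built into DNA. The labels give neither the promoter or species of the transgenic YAP, nor the deleted part of Tet1, nor whether replicate libraries stand for separate animals. No group had the Tet1 deletion without the transgene, and no wild type group received decitabine.

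As background, GSTs couple glutathione to electrophiles, UGTs couple glucuronic acid from UDP-glucuronic acid to acceptors such as bilirubin, steroids and drugs, and SULTs couple sulfate from the donor PAPS to phenols, amines, steroids and bile acids. GSTs and SULTs of these classes work mainly in the cytosol and UGTs in the membrane of the endoplasmic reticulum. Hepatocytes are the main site of all 3 reactions, and the xenosensing receptors CAR, PXR and PPAR alpha, the oxidant sensor NRF2 and hepatocyte factors such as HNF1 and HNF4 alpha are the best known controllers of these genes. Steroid hormones and many prescribed drugs leave the liver in part as such conjugates.

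The libraries held between 19082417 and 31728303 reads assigned to genes. Levels are given in normalised reads, the unit of the columns without decitabine, in which 1 read was worth between 0.0344 and 0.0594. The decitabine columns were in TPM and were brought to the same scale from recovered reads. Replicates were unusually alike: beyond counting noise, expression differed by a coefficient of variation of 0.0216 to 0.0279 within Tet1 KO YAP Tg, 0.00817 to 0.0387 within YAP Tg and 0.0232 between Control 1 and Control 3. Control 2 stood apart from the other Control libraries at 0.124 and 0.133, and the decitabine libraries differed from each other by 0.177 to 0.307. The p-values therefore measure the spread between these libraries, which may be technical, and each count of calls was repeated with near-identical libraries added together. Tet1 averaged 2.28 ± 1.07 normalised reads with decitabine, 0.931 ± 0.333 in Tet1 KO YAP Tg and 9.15 ± 0.673 in YAP Tg, against 0.682 ± 0.296 in Control (SD, n = 3 each). It was highest in YAP Tg and low in the other groups, with each decitabine library above each untreated library of that genotype. Yap1 averaged 137 ± 44.1 normalised reads with decitabine, 51.1 ± 2.29 in Tet1 KO YAP Tg and 29.9 ± 2.24 in YAP Tg, against 54.8 ± 6.70 in Control, so that it was lower in YAP Tg than in Control and highest with decitabine. Y-linked genes were read in all 12 libraries. Xist, the transcript of the inactive X chromosome, lay between 0.0894 and 15.3, with high and low libraries inside each of the groups without decitabine. Among near-identical libraries, Xist was 12.9 in Control 1 and 0.119 in Control 3. It was 5.83 and 0.137 in YAP Tg 1 and 2, and 0.0894 and 12.2 in Tet1 KO YAP Tg 1 and 2. Whether such libraries come from the same animal was not tested. Several members are sex-dependent in mouse liver, and the part of sex in the results was not tested.

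The families differed in how many members carried most of the RNA. Per kilobase of transcript, a scale on which genes can be compared, Gsta3, an alpha class enzyme, made up 48% of the summed GST level in Control and Gstm1, a mu class enzyme, another 23%. Gsta3 had 1775, 1871 and 1811 normalised reads per kilobase in the 3 Control libraries and Gstm1 had 812, 919.8 and 886. Next came Gstz1, which also isomerises maleylacetoacetate in tyrosine breakdown, at 287 ± 8.68, Gstp1 at 241 ± 79.9 and Gstt1 at 111 ± 19.0 normalised reads per kilobase (SD, n = 3). Gstz1 and Gstp1 overlapped among the Control libraries because Gstp1 was unequal there, at 179, 331 and 212.

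The UGT level was spread more evenly. Ugt2b5 led in Control with 20.3% of the summed UGT level per kilobase, at 501 ± 36.3 normalised reads per kilobase, followed by Ugt2b36 at 455 ± 12.3 and Ugt2b1 at 395 ± 24.7, all 3 of the family that glucuronidates steroids and opioids. Ugt2b34 at 257 ± 6.88 and Ugt1a6b at 249.6 ± 34.97 were close to each other, with overlapping libraries. Most reads of Ugt1a6b are shared with the other Ugt1a symbols of its locus, so its place does not describe Ugt1a6b alone. Of its 572 normalised reads in Control, 40.4 exceeded the lowest Ugt1a symbol. Its counted length is also shorter, at 2293 bases, against 3229 for Ugt1a1. Sult1a1, which sulfates small phenols, held 66.3% of the summed SULT level in Control at 289 ± 3.84 normalised reads per kilobase, and Sult1d1, which sulfates catecholamines in mice, held most of the rest at 129 ± 2.68. Sult1b1, a thyroid hormone and phenol sulfotransferase, had 15.3 ± 0.802 and Sult1c2 2.88 ± 0.351, while Sult1e1, the oestrogen sulfotransferase, had 0.0974 ± 0.0466.

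**Figure D1:**
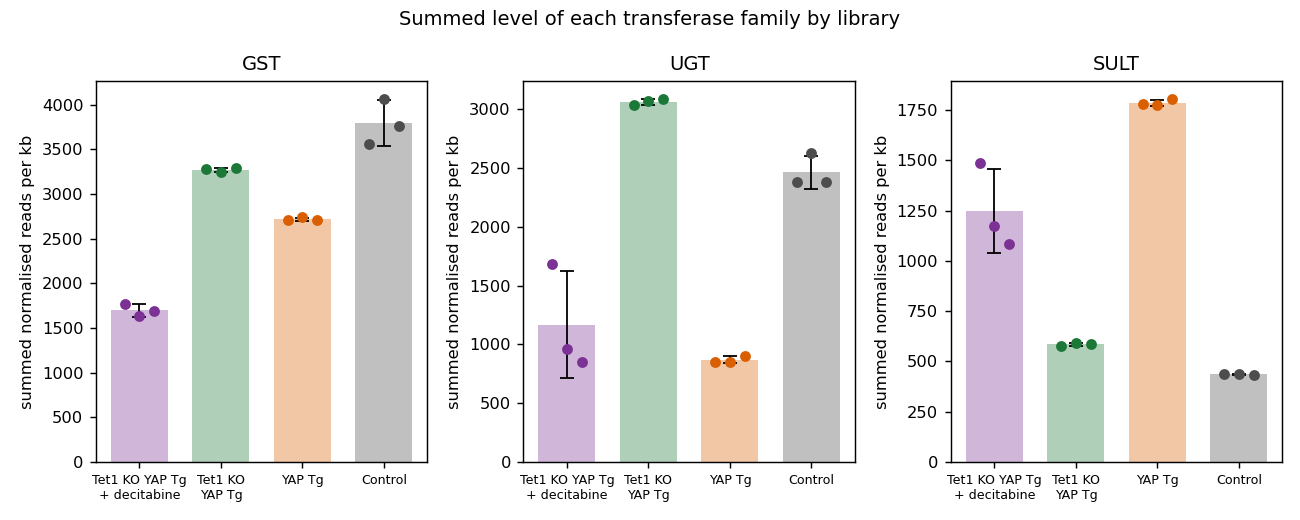
Summed level of each family, in normalised reads per kilobase on a linear axis from 0, for each library (points) with the group mean and SD, from left to right decitabine-treated Tet1 KO YAP Tg, Tet1 KO YAP Tg, YAP Tg and Control. The mean UGT sum is lowest in YAP Tg, where the decitabine libraries overlap it, the SULT sum is highest in YAP Tg, and the GST sum is lowest in the decitabine group, where transcript length moved with the difference.

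Summed per kilobase over 20 GSTs, 11 UGTs (the overlapping Ugt1a symbols counted once, by Ugt1a1) and 8 SULTs, the families moved differently. The UGT sum was 1165 ± 454 in the decitabine group, 3063 ± 24.1 in Tet1 KO YAP Tg and 867 ± 30.9 in YAP Tg, against 2464 ± 142 in Control (SD, n = 3 each), which is 47.3%, 124% and 35.2% of the Control mean. The GST sum was 1695 ± 69.0 in the decitabine group, 3271 ± 25.7 in Tet1 KO YAP Tg and 2719 ± 17.8 in YAP Tg, against 3795 ± 254 in Control. The decitabine value moves with transcript length: with the trend of differences over length removed, the log2 difference from untreated Tet1 KO YAP Tg was -0.78 instead of -1.52 for Gsta3 and -0.34 instead of -0.70 for Gstm1. The SULT sum was 1247 ± 210, 584 ± 6.08 and 1787 ± 15.5 in the same 3 groups, against 436 ± 2.48 in Control. In none of the families did YAP Tg and Control libraries overlap, whereas the UGT sum of the decitabine libraries (846 to 1686) overlapped that of YAP Tg (847 to 903). Sult1a1 made up most of the SULT sum, with 97.8% of it in the decitabine group, 63.1% in Tet1 KO YAP Tg and 97.8% in YAP Tg, against 66.3% in Control.

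The windows around the transcription starts are shown for 6 members that the results turn on. They run from 250 bases before to 50 bases after the start in the RefSeq annotation of GRCm38.p6, are written 5′ to 3′ on the strand of the gene, and carry each CG, the pair that DNA methylation and TET1 act on, in capitals.
Sult1a1, chr7:126676369-126676668, minus strand: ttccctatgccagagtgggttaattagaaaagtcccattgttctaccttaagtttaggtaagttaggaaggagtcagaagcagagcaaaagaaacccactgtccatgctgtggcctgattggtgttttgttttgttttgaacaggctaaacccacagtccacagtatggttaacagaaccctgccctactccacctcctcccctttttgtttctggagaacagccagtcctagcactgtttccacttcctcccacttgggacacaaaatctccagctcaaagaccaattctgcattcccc
Gstm5, chr3:107895604-107895903, plus strand: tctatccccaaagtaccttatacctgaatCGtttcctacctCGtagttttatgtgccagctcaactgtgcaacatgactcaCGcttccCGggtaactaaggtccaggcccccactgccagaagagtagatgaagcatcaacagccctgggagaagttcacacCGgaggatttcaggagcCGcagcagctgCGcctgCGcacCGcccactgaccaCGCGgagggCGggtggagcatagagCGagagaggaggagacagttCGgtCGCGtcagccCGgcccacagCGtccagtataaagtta
Ugt2b1, chr5:86926454-86926753, minus strand: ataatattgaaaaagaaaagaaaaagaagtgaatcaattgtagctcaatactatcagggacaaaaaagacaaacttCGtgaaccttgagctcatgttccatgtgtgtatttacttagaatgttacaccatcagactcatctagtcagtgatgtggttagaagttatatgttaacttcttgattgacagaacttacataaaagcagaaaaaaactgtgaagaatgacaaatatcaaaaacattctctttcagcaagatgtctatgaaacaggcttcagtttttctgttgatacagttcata
Ugt3a1, chr15:9279579-9279878, plus strand: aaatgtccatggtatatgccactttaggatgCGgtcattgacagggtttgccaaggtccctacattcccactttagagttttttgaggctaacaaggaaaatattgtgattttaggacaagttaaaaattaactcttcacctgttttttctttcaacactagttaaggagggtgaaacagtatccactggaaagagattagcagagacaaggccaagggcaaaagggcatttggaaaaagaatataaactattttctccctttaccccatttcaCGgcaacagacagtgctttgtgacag
Gstt3, chr10:75781373-75781672, minus strand: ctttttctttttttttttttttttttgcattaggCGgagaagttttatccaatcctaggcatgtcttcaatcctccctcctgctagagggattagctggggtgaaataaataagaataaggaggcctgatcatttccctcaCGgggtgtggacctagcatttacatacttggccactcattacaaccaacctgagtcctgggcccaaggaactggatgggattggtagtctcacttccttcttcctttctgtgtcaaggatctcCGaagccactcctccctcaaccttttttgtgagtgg
Sult1d1, chr5:87568957-87569256, minus strand: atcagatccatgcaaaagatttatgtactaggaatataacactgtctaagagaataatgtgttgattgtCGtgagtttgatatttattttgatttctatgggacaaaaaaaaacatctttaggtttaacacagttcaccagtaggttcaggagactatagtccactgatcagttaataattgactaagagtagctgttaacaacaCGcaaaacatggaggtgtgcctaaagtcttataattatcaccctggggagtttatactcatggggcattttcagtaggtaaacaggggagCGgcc
The window of Sult1a1 held 0 CG, that of Ugt2b1 1, that of Ugt3a1 2 and those of Gstt3 and Sult1d1 3 each, whereas the window of Gstm5 held 18. Methylation in these windows was not analysed here.

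RefSeq gave such a window for 46 of the 53 members, and where a gene had several, the first listed was counted. The 18 UGT windows held 0 to 4 CG with a median of 2, and none reached 10 CG, against 43.9% of the 27025 windows of all genes, whose median was 7. The 19 GST windows ranged from 1 to 20 CG with a median of 8, and 9 of them (47.4%) had 10 or more. Among the 9 SULT windows the median was 1 and 1 window reached 10.

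Short motifs were searched on both strands of the same windows. GGAATG, the core that TEAD factors bind, occurred in 4 of 9 SULT windows (44.4%), Sult1a1 among them at base 293, in 3 GST and 2 UGT windows, and in 14.6% of all windows. The AP-1 motif TGANTCA was found in 6 of 18 UGT windows (33.3%) and 3 of 19 GST windows, against 7.93% of all, and the antioxidant response element TGACNNNGC in 2 GST windows and in no UGT or SULT window, against 12.5%. The HNF1 motif was present in 3 UGT windows (Ugt1a1, Ugt1a9 and Ugt1a10) and 2 SULT windows (Sult1d1 and Sult2a5), against 0.437% of all, and the HNF4 type motif CAAAGTCCA in 0 of 46, against 0.477%. A second window of Sult1b1, not counted, held the TEAD, AP-1 and HNF4 type motifs, that of Sult2b1 the AP-1 motif and that of Gstm7 the antioxidant response element. Members of a cluster arose by duplication and share sequence, so these counts are not of independent windows, and a match is a description of the letters only.

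In YAP Tg against Control, every tested UGT fell and the other families split. Of the 43 members that passed a minimum of 0.5 normalised reads in 3 of the 9 libraries without decitabine, 6 rose and 33 fell at an adjusted p under 0.05 with limma, where 70.5% of all 13730 genes were called. All 18 tested UGTs fell, against 34.5% of all genes, and 15 of them by 2-fold or more, against 9.38% of all genes. Of the 18, 8 are Ugt1a symbols of 1 locus, which count nearly the same reads and so are not separate results. The 8 tested Ugt2 genes and 2 Ugt3 genes fell as well, 5 and 2 of them by 2-fold or more. Over the 18 UGTs the median log2 difference was -1.35, against 0.0099 over all genes. It was -1.34 for the Ugt1a symbols and -2.06 for the Ugt2 genes. GSTs gave 5 higher, 11 lower and 2 not called with a median of -0.75, and SULTs gave 1 higher, 4 lower and 2 not called. Markers of cell types moved in the same comparison: the summed level of 5 measured Kupffer cell and macrophage markers was 918 to 937 normalised reads in the YAP Tg libraries, against 208 to 274 in Control. That of 6 hepatocyte markers was 119112 to 121669, against 109813 to 131139. Counted singly, 4 of these 6 fell and 2 were not called, with a median log2 difference of -0.61. In RNA of whole liver, fewer cells of a type and less RNA per cell cannot be told apart, and the part of cell makeup was not tested.

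**Figure D2:**
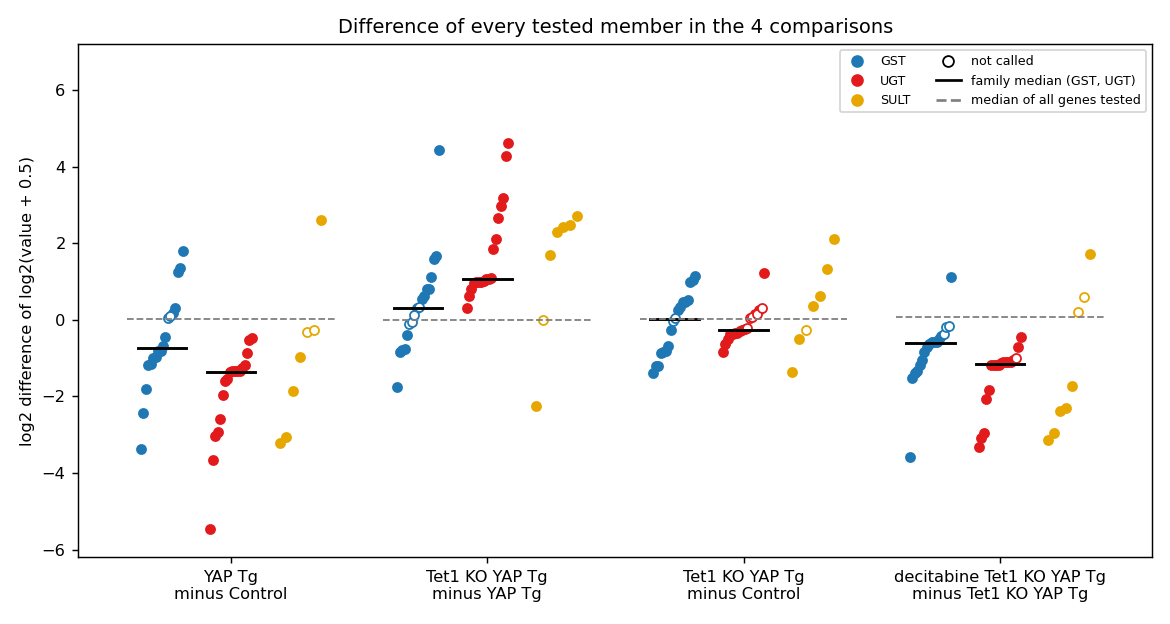
Log2 difference of each tested member in the 4 comparisons, by family, with filled and open points for called and not called members, a black line at the median of the GSTs and of the UGTs and a dashed line at the median of all genes. The UGT points lie below 0 in YAP Tg against Control, above 0 for Tet1 KO YAP Tg over YAP Tg, around 0 in Tet1 KO YAP Tg against Control, and below 0 with decitabine.

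The UGTs that fell furthest were Ugt2 and Ugt3 genes, although other Ugt2 genes fell least. Ugt2b1, an abundant enzyme of the steroid-conjugating family, had 119, 120.1 and 127 normalised reads in YAP Tg, against 950.4, 1074 and 989.9 in Control. The groups were far apart, with a log2 difference of -3.04, SE 0.0543, adjusted p = 5.85e-13 (limma). Ugt3a1, whose human counterpart transfers N-acetylglucosamine, had 6.55, 7.04 and 8.02 normalised reads in YAP Tg, against 91.3, 102 and 96.3 in Control, with a log2 difference of -3.66, SE 0.0789, adjusted p = 2.89e-12 (limma). Ugt2b38 was almost lost, at 3 reads in all YAP Tg libraries together against 1322 in Control, a ratio of 658 with a 95% interval for counting error of 225 to 3196. Its Control libraries held 21.2, 27.4 and 20.5 normalised reads. Ugt2a3, whose human counterpart conjugates bile acids, averaged 61.3 ± 2.39 normalised reads in YAP Tg and 468 ± 47.4 in Control, and Ugt2b5 157 ± 8.52 in YAP Tg and 948 ± 68.7 in Control, with log2 differences of -2.92 and -2.59 (adjusted p = 5.67e-12 and 5.2e-12, limma). Neither pair of groups overlapped.

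The remaining UGTs fell less. Ugt3a2 averaged 95.6 ± 5.33 normalised reads in YAP Tg and 376 ± 52.5 in Control (log2 difference -1.96, adjusted p = 1.04e-09, limma). All 8 Ugt1a symbols fell, with log2 differences of -1.602 to -1.17. Ugt2b36, second per kilobase in Control, had 467, 465 and 490.1 normalised reads in YAP Tg, against 839.7, 885 and 853 in Control. Its log2 difference was smaller, at -0.86 (limma, adjusted p = 7.91e-09). Ugt2b35 and Ugt2b34 moved least, with log2 differences of -0.53 and -0.48. Ugt2b36 was the leading UGT in YAP Tg with 29% of the summed level per kilobase and Ugt2b34 followed with 21.3%.

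Among the GSTs, the theta and pi classes fell and members of the mu and alpha classes went both ways. Gstt3, a theta class enzyme, had 1.33, 1.13 and 1.24 normalised reads in YAP Tg, against 14.8, 20.7 and 17.3 in Control, a log2 difference of -3.37, SE 0.112, adjusted p = 1.32e-10 (limma). Every YAP Tg library was below every Control library by a wide margin. Gstp1, a pi class enzyme, had 32.6, 32.0 and 30.5 normalised reads in YAP Tg, against 133, 246 and 158 in Control. Its Control libraries were unequal, with Control 2 the highest, but all lay above YAP Tg (log2 difference of -2.43, SE 0.171, adjusted p = 1.04e-07, limma). Gstp1 and Gstp2 are close copies, and counting could split reads between them. Gstm4, a mu class enzyme, averaged 9.54 ± 0.517 normalised reads in YAP Tg and 35.2 ± 7.55 in Control, Gstt1 50.1 ± 2.82 in YAP Tg and 116 ± 19.7 in Control, with log2 differences of -1.81 and -1.18. Gsto1, an omega class enzyme that reduces dehydroascorbate, differed by -0.99 and the abundant Gsta3 by -0.82, with Gsta3 at 828 ± 11.3 normalised reads in YAP Tg and 1464 ± 39.3 in Control.

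The 5 GSTs that rose were Gstm5, Gsta2, Gstm2, Gsta4 and Gstk1. Gstm5 had 29.99, 27.3 and 27.4 normalised reads in YAP Tg, against 6.90, 9.25 and 7.48 in Control (log2 difference of 1.79, SE 0.105, adjusted p = 2.11e-08, limma). Gsta2 had 31.6, 33.5 and 29.9 normalised reads in YAP Tg, against 13.3, 8.85 and 14.8 in Control, and Gstm2 had 126, 128 and 123 against 47.6, 61.9 and 49.0. Their libraries did not overlap, and the log2 differences were 1.36 and 1.25 (adjusted p = 7.11e-06 and 6.2e-08, limma). Gsta4, which conjugates the lipid peroxidation product hydroxynonenal, differed by 0.32, and Gstk1, found in mitochondria and peroxisomes, by 0.17. The call of Gstk1 ended without Control 1 (0.15) and without YAP Tg 2 (0.14). The 2 GSTs not called were Gstm1, at 1219 ± 23.8 normalised reads in YAP Tg and 1129 ± 71.2 in Control (log2 difference 0.11, adjusted p = 0.0842, limma), and Gstm7. Without Control 2, Gstm1 was called higher at 0.15.

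The SULTs held both the largest rise and some of the largest falls. Sult1a1 had 2380.0, 2382 and 2417 normalised reads in YAP Tg, against 393, 402 and 393 in Control. Both groups were tight and far apart, with a log2 difference of 2.59, SE 0.0415, adjusted p = 2.2e-13 (limma), and no other tested member rose as far. Sult1d1 had 43.9, 40.8 and 42.9 normalised reads in YAP Tg, against 157, 151 and 155 in Control, and Sult1b1 had 3.78, 3.92 and 3.83 against 40.03, 41.7 and 37.6. Both fell, with log2 differences of -1.85 and -3.21 (adjusted p = 1.85e-11 and 2.61e-12, limma). Sult5a1 had 1 read in the YAP Tg libraries together against 237 in Control, a ratio of 354 with a 95% counting interval of 62.9 to 14042. Sult2a7, of the hydroxysteroid and bile acid subfamily, had 0 reads in YAP Tg against 28 in Control, at least 13.9-fold lower with 3 reads per group as the floor. The 2 SULTs not called were Sult1c2 (log2 difference -0.27, adjusted p = 0.0662, limma) and Sult1e1, which had 0 reads in YAP Tg against 7 in Control. Without Control 2 Sult1c2 was called lower at -0.32, and Sult1e1 was called lower by edgeR and DESeq2 on recovered reads, with a pseudocount of 0.1 and with no filter. With near-identical libraries added together, which leaves 7 samples in 1 fit and YAP Tg as 1 sample assumed to vary like the Control pair and the decitabine libraries, 3 members were called higher and 22 lower, where 11.4% of all genes were called higher and 7.68% lower.

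**Figure D3:**
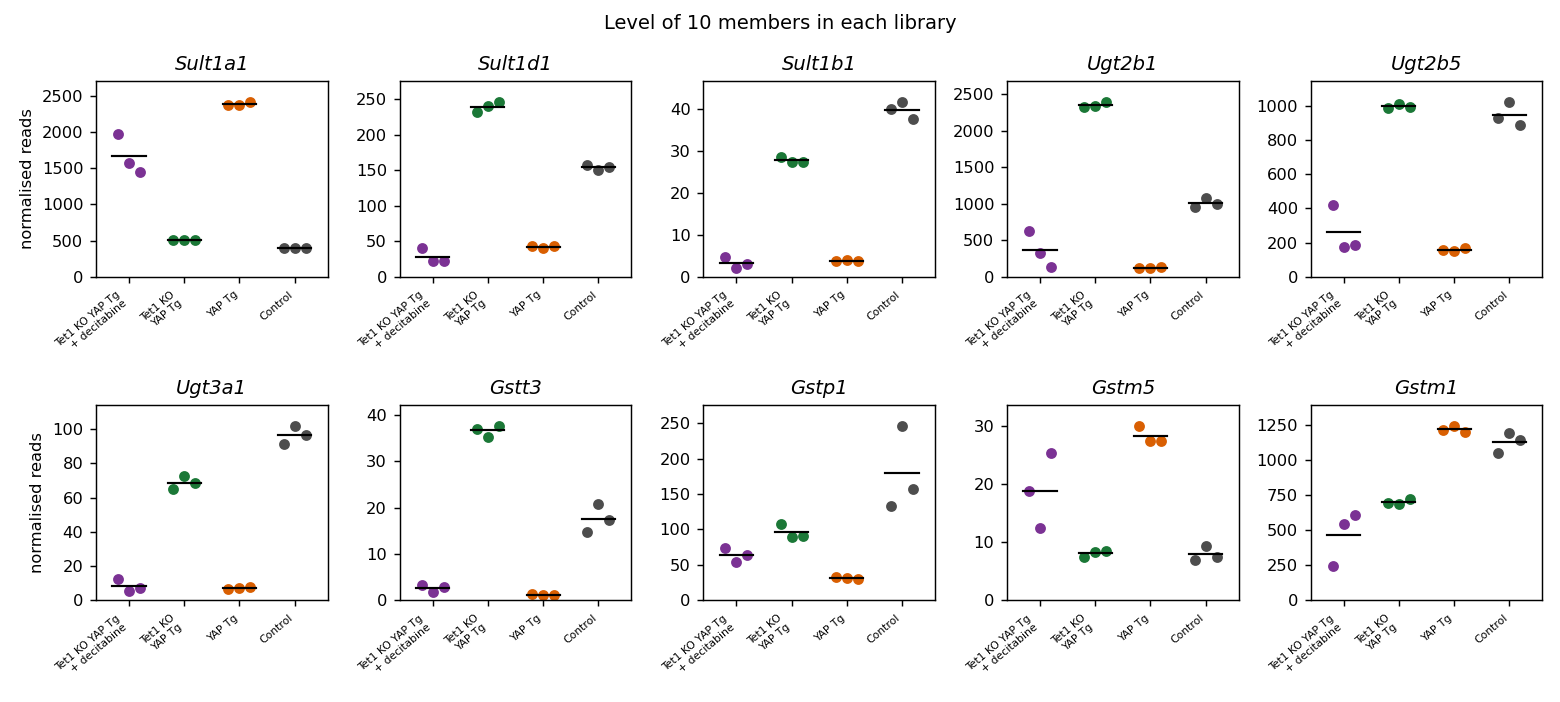
Normalised reads of 10 members in each library (points) on linear axes from 0, with the group mean as a line, from left to right decitabine-treated Tet1 KO YAP Tg, Tet1 KO YAP Tg, YAP Tg and Control. Sult1a1 and Gstm5 are high in the decitabine group and in YAP Tg, Gstm1 is low in the decitabine group and in Tet1 KO YAP Tg, and the other 7 genes are low in the decitabine group and in YAP Tg.

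Another 10 members did not pass the minimum in the 9 libraries: Gsta1, Gsto2, Gstt4, Sult2a2, Sult2a5, Sult2b1, Sult3a1, Sult4a1, Ugt2a1 and Ugt2a2. None of them exceeded 0.936 normalised reads in any of these libraries. Ugt2a1, best known from olfactory tissue, had 1 read in YAP Tg against 21 in Control (ratio 31.4, 95% counting interval 5.05 to 1297), and Ugt2a2, which shares its last exons with Ugt2a1 so that counting could split or repeat reads, had 1 against 20. Sult2b1, the cholesterol sulfotransferase, went the other way with 53 reads in YAP Tg against 1 in Control (ratio 35.5, 6.1 to 1427), and Gsta1 had 26 against 2 (ratio 8.7, 2.18 to 75.7).

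For Tet1 KO YAP Tg over YAP Tg, which share the transgene and differ by Tet1, every tested UGT was higher. Of 43 tested members 32 rose and 6 fell, where 67.4% of all genes were called. All 18 tested UGTs rose, against 33.4% of all genes, 11 of them by 2-fold or more, against 8.13%, with a median log2 difference of 1.06, against 0.0042 over all genes. Again 8 of the 18 were the Ugt1a symbols of 1 locus. The 8 tested Ugt2 genes and 2 Ugt3 genes rose as well, 6 and 2 of them by 2-fold or more. GSTs gave 9 higher, 5 lower and 4 not called, and SULTs 5 higher, 1 lower and 1 not called, where 34% of all genes were called lower. The Kupffer cell and macrophage markers summed to 254 to 258 normalised reads in Tet1 KO YAP Tg, compared with 918 to 937 in YAP Tg. The hepatocyte markers summed to 57450 to 60122 in Tet1 KO YAP Tg, compared with 119112 to 121669 in YAP Tg. Counted singly, 4 of these 6 markers rose and 2 fell, with a median log2 difference of 0.69. The part of these cells in the result was not tested. YAP Tg is shared with the comparison above, so a reversal of direction between them rests in part on the same libraries.

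Ugt2b1 had 2329.7, 2343 and 2393 normalised reads in Tet1 KO YAP Tg, compared with 119, 120.1 and 127 in YAP Tg, a log2 difference of 4.27, SE 0.0543, adjusted p = 3.44e-14 (limma). It became the leading UGT, with 30.2% of the summed UGT level per kilobase. Ugt2b38 had 797 reads in Tet1 KO YAP Tg but 3 in YAP Tg (ratio 355, 95% counting interval 121 to 1724). Ugt3a1 had 65.2, 72.7 and 68.2 normalised reads in Tet1 KO YAP Tg, compared with 6.55, 7.04 and 8.02 in YAP Tg, with a log2 difference of 3.17 (adjusted p = 1.26e-11, limma). The log2 difference was 2.97 for Ugt2a3, 2.66 for Ugt2b5 and 2.12 for Ugt3a2, between 0.79 and 1.07 for the Ugt1a symbols and 0.32 for Ugt2b35, the smallest.

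Gstt3 moved most among the GSTs, with 37.0, 35.2 and 37.6 normalised reads in Tet1 KO YAP Tg, compared with 1.33, 1.13 and 1.24 in YAP Tg (log2 difference of 4.42, SE 0.112, adjusted p = 1.58e-11, limma). Gstt1, a theta class enzyme that acts on small halogenated compounds, averaged 159 ± 4.56 in Tet1 KO YAP Tg and 50.1 ± 2.82 in YAP Tg, Gstp1 96.1 ± 10.3 in Tet1 KO YAP Tg and 31.7 ± 1.06 in YAP Tg. The tyrosine pathway enzyme Gstz1 averaged 829 ± 15.6 in Tet1 KO YAP Tg and 380.2 ± 7.07 in YAP Tg, and Gstk1 146 ± 6.89 in Tet1 KO YAP Tg and 82.5 ± 3.15 in YAP Tg, so that 5 GSTs of 4 classes rose by 0.81 to 4.42 on the log2 scale. The 5 that fell were Gstm5, at 7.51, 8.27 and 8.53 normalised reads in Tet1 KO YAP Tg, compared with 29.99, 27.3 and 27.4 in YAP Tg (log2 difference -1.74, adjusted p = 3.23e-08, limma), Gsta2 (-0.83), Gstm1 (-0.79), Gstt2 (-0.75) and Gstm3 (-0.39). The abundant Gstm1 had 696, 687 and 725 normalised reads in Tet1 KO YAP Tg, compared with 1213, 1245 and 1199 in YAP Tg. The call of Gstm3 ended without YAP Tg 3 (-0.34) and without Tet1 KO YAP Tg 3 (-0.36), and without Control 2, which enters through the shared spread, Gstm2 was called lower (-0.11) and Gsto1 higher (0.12).

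Sult1a1 had 504, 509 and 501 normalised reads in Tet1 KO YAP Tg, compared with 2380.0, 2382 and 2417 in YAP Tg, and was the only SULT that fell (log2 difference of -2.24, SE 0.0415, adjusted p = 9.89e-13, limma). The 5 that rose included Sult1d1, with 232, 241 and 246 normalised reads in Tet1 KO YAP Tg, compared with 43.9, 40.8 and 42.9 in YAP Tg (log2 difference 2.48), and Sult1b1 (2.70). Both were far outside the spread of their groups. The others had almost no reads in YAP Tg: Sult1e1 had 138 reads in Tet1 KO YAP Tg but 0 in YAP Tg, at least 61.4-fold higher, Sult2a7 128 against 0, at least 57-fold higher, and Sult5a1 72 against 1, a ratio of 96.1 with a 95% counting interval of 16.7 to 3849. With near-identical libraries added together, each of these groups is 1 sample, and the spread comes from the Control pair and the decitabine libraries. On that footing 12 members were called higher and 1 lower, where 3.91% of all genes were called higher and 5.25% lower.

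Set against Control, the Tet1 KO YAP Tg livers had UGTs near the Control level but not the Control profile. Here 15 members were higher and 20 lower of 43, where 39% of all genes were called. UGTs gave 3 higher, 10 lower and 5 not called, but 8 of the 10 were the overlapping Ugt1a symbols, and with that locus counted once 3 UGTs and 13 members in all were lower. GSTs gave 8 higher, 8 lower and 2 not called, and SULTs 4 higher, 2 lower and 1 not called. The share of all genes called was 20.2% higher and 18.8% lower. By 2-fold or more, 5 members were higher and 4 lower, where 1.89% and 1.87% of all genes were. Kupffer cell and macrophage markers overlapped, at 254 to 258 normalised reads in Tet1 KO YAP Tg, against 208 to 274 in Control. Hepatocyte markers summed to 57450 to 60122 in Tet1 KO YAP Tg, against 109813 to 131139 in Control, most of it Alb, the albumin gene, which averaged 41339 ± 1016 in Tet1 KO YAP Tg and 99329 ± 8462 in Control. Counted singly, 2 of the 6 hepatocyte markers were higher, 3 lower and 1 not called.

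Ugt2b1 exceeded its Control level, with 2329.7, 2343 and 2393 normalised reads in Tet1 KO YAP Tg, against 950.4, 1074 and 989.9 in Control (log2 difference of 1.23, SE 0.0543, adjusted p = 1.75e-08, limma). Ugt2b36 and Ugt2b34 were slightly higher (log2 differences of 0.25 and 0.15). Ugt2b38 averaged 12.7 ± 1.01 normalised reads in Tet1 KO YAP Tg and 23 ± 3.79 in Control, Ugt3a1 68.7 ± 3.74 in Tet1 KO YAP Tg and 96.5 ± 5.31 in Control, and both were lower (-0.83 and -0.49). All 8 Ugt1a symbols were lower, with a log2 difference of -0.62 for Ugt1a9 and of -0.37 to -0.23 for the rest. Ugt2b5, Ugt2a3, Ugt3a2, Ugt2b35 and Ugt2b37 were not called. The UGTs called higher went to 5 without Control 2, Ugt2b5 among them at 0.13, the call of Ugt1a6b ended without Tet1 KO YAP Tg 2 (-0.26), and the call of Ugt2b34 ended without any of 5 libraries (Control 1 and 3 and all Tet1 KO YAP Tg libraries), at 0.14 to 0.16.

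Some GSTs stayed apart from Control in both directions. Gstm2 averaged 116 ± 0.479 normalised reads in Tet1 KO YAP Tg and 52.8 ± 7.87 in Control, Gstt3 36.6 ± 1.24 in Tet1 KO YAP Tg and 17.6 ± 2.96 in Control, and Gstk1 146 ± 6.89 in Tet1 KO YAP Tg and 73.3 ± 4.97 in Control. These 3 were higher by 0.99 to 1.14 on the log2 scale (adjusted p at most 2.74e-05, limma), and Gsta2 (0.53) and Gstt1 (0.47) followed. The lower ones were led by Gstm3, at 18.2, 18.8 and 17.2 normalised reads in Tet1 KO YAP Tg, against 38.6, 61.2 and 45.7 in Control, where Control 2 was again the highest. Next were Gstt2 (-1.21), Gstm4 (-1.19), Gsto1 (-0.86) and Gstp1 (-0.85), and Gstm3 itself differed by -1.37. Gstm5, high in YAP Tg, averaged 8.10 ± 0.529 normalised reads in Tet1 KO YAP Tg and 7.88 ± 1.23 in Control with overlapping libraries and was not called. The call of Gsta2 ended without Tet1 KO YAP Tg 1 (0.48) and without Tet1 KO YAP Tg 3 (0.49), and the difference of Gstm6, not called at -0.022, turned to 0.24 without Control 2.

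Of the SULTs, Sult1a1 averaged 505 ± 4.32 normalised reads in Tet1 KO YAP Tg and 396 ± 5.26 in Control, and Sult1d1 239.8 ± 7.24 in Tet1 KO YAP Tg and 154 ± 3.21 in Control, both higher (0.35 and 0.63). Sult1b1 was lower (-0.51). Sult1e1 had 2.01, 2.54 and 1.97 normalised reads in Tet1 KO YAP Tg, against 0.175, 0.133 and 0.0594 in Control, so it was higher at a very low level (log2 difference 2.10, adjusted p = 1.68e-06, limma). Sult2a7 was higher (1.33) and Sult5a1 lower (-1.37), also at levels of a few normalised reads. Sult1c2 was not called (-0.28) and was called lower without Control 2 at -0.33. With near-identical libraries added together, which leaves Control as a pair of samples and Tet1 KO YAP Tg as 1 sample assumed to vary like the others, limma called 1 member higher and 0 lower (5 and 7 at an unadjusted p under 0.05), where 0.211% of all genes were called higher and 0.153% lower. Both edgeR and DESeq2 were run only on all libraries, where they called 15 and 16 members higher and 20 and 20 lower.

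With decitabine, in Tet1 KO YAP Tg mice against the same genotype untreated, most members fell again. Of 44 tested members 2 rose and 36 fell, where 60.7% of all 13948 genes were called and 27.8% were called lower. UGTs gave 17 lower and 1 not called with a median log2 difference of -1.15, GSTs 1 higher, 14 lower and 3 not called with a median of -0.61, and SULTs 1 higher, 5 lower and 2 not called. The 17 UGTs were the 8 Ugt1a symbols of 1 locus, 7 Ugt2 genes and 2 Ugt3 genes. The median over all genes was 0.072. Kupffer cell and macrophage markers summed to 965 to 1191 normalised reads with decitabine, against 254 to 258 without. Hepatocyte markers, mostly Alb, summed to 104281 to 124238 with decitabine, against 57450 to 60122 without. Counted singly, 1 of the 6 hepatocyte markers was higher, 3 were lower and 2 not called, with a median log2 difference of -0.46. The part of these cells in the result was not tested.

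Length of the transcript moved with this comparison and bears on the GSTs, whose transcripts are short. Among abundant genes, the median log2 difference was -1.04 for the 175 genes of up to 600 bases, -0.62 for the next 308 genes of up to 1000 bases, -0.35 for the next 744 of up to 1700 bases and 0.049 for 895 genes over 6000 bases, while YAP Tg against Control stayed between -0.33 and -0.23 over all lengths. With this trend removed, 5 members were higher and 27 lower, and as TPM in all libraries 4 were higher and 26 lower, of which 7 GSTs. Over all genes the TPM scale called 7157 higher and 2322 lower, instead of 4584 and 3882, with the median moved to 0.43. Gsta2, Gsta4, Gstk1 and Gstp1 turned positive without the trend (0.12, 0.23, 0.15 and 0.16), and Gstm1, Gstm2 and Ugt2b34 were no longer called (-0.34, -0.23 and -0.34). As TPM those 7 were no longer called either, and nor was Gstz1 (-0.05). The part of RNA length or integrity was not tested.

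**Figure D4:**
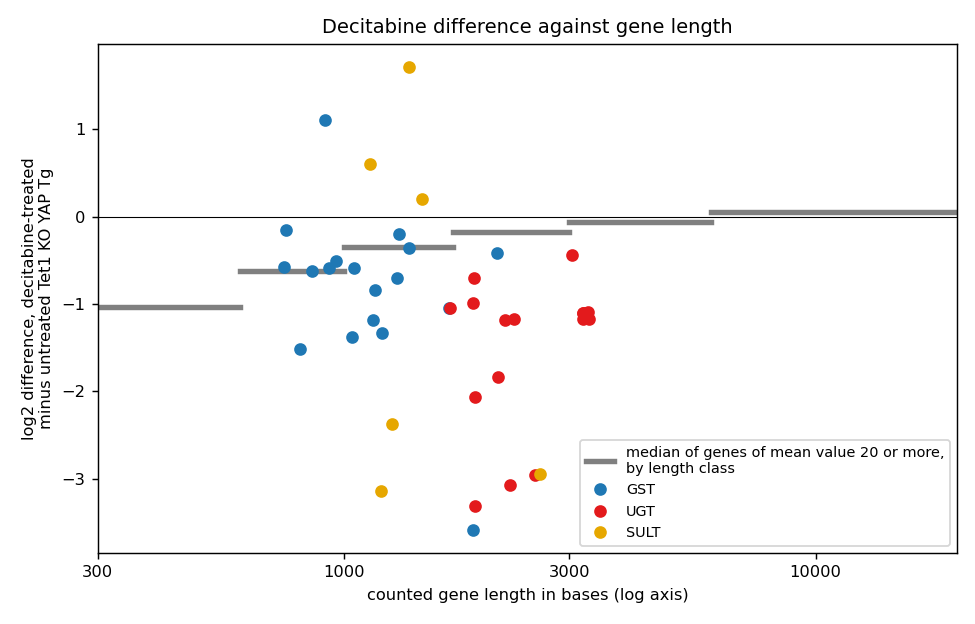
Log2 difference between decitabine-treated and untreated Tet1 KO YAP Tg (vertical axis) against transcript length in bases (horizontal log axis) for the tested members, coloured by family, with the median of abundant genes (mean of at least 20 normalised reads) in each length class as a grey bar. The bars climb from -1.04 in the shortest class to 0.049 in the longest, and every UGT point lies below the bar of its class.

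Ugt2b1 had 627, 318 and 138 normalised reads with decitabine, against 2329.7, 2343 and 2393 without. The treated libraries were unequal but all lay far below the untreated ones (log2 difference of -2.96, SE 0.364, adjusted p = 1.29e-05, limma). Ugt3a1 had 12.2, 5.27 and 6.99 normalised reads with decitabine, against 65.2, 72.7 and 68.2 without (log2 difference of -3.08, SE 0.212, adjusted p = 5.89e-08, limma). Ugt2b38 had 2.85, 0.892 and 0 normalised reads with decitabine, against 11.5, 13.3 and 13.2 without. Its log2 difference of -3.31 rested in part on single libraries, with -3.98 without decitabine 1 and -2.61 without decitabine 3. Ugt2b5 averaged 261 ± 140.3 with decitabine and 998 ± 14.2 without, Ugt2a3 155 ± 103 with decitabine and 483 ± 9.21 without, with log2 differences of -2.06 and -1.83 (adjusted p = 1.01e-05 and 0.000173, limma). The log2 difference was -1.17 to -1.09 for the Ugt1a symbols, -1.19 for Ugt3a2, -1.05 for Ugt2b35, -0.70 for Ugt2b36 and -0.44 for Ugt2b34, the last with overlapping libraries. The call of Ugt2b34 ended without any one of 5 libraries, at -0.45 to -0.22, and Ugt2b37 was not called.

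Among the GSTs, Gstt3 had 3.42, 1.73 and 2.90 normalised reads with decitabine, against 37.0, 35.2 and 37.6 without, and it fell furthest (log2 difference of -3.58, SE 0.187, adjusted p = 4.12e-09, limma). Gsta3 had 522, 369 and 388 with decitabine, against 1191, 1221 and 1212 without (log2 difference -1.52, adjusted p = 1.99e-07, limma), and with the length trend removed it still differed by -0.78. Gstt1 (-1.38), Gstm3 (-1.33) and Gstm6 (-1.19) followed. Gstm5 was the only GST that rose, with 18.7, 12.4 and 25.3 normalised reads with decitabine, against 7.51, 8.27 and 8.53 without (log2 difference of 1.11, SE 0.199, adjusted p = 0.000339, limma). The smaller GST calls ended without single libraries: Gsta2 without untreated 1 or 3 or treated 2, Gsta4 without untreated 1 or 3, Gstp1 without untreated 1 or treated 2 and Gstm1 without any untreated library, at log2 differences of -0.72 to -0.36. Gstm7 without treated 2 (-0.27) and Gstt2 without treated 3 (-0.61) were called lower.

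Sult1a1 rose with decitabine, at 1980.1, 1578 and 1454 normalised reads, against 504, 509 and 501 without (log2 difference of 1.71, SE 0.110, adjusted p = 3.11e-08, limma). Each treated library was above every untreated one. Sult1d1 had 40.2, 21.5 and 22.1 normalised reads with decitabine, against 232, 241 and 246 without, and Sult1b1 had 4.77, 2.11 and 3.10 against 28.7, 27.3 and 27.4. Both fell, with log2 differences of -3.14 and -2.95 (adjusted p = 9.42e-09 and 3.1e-08, limma). The decitabine reads of Sult1d1, Gstm3, Gstp1 and Ugt1a10 rest on a whole-number correction of recovered reads, and without it their log2 differences were -4.67, -2.23, -1.57 and -2.10 instead of -3.14, -1.33, -0.58 and -1.10. Sult1e1 had 1 read with decitabine against 138 without (ratio 195, 95% counting interval 34.4 to 7763), Sult2a7 had 0 against 128, at least 60.3-fold lower, and Sult5a1 had 0 against 72, at least 33.9-fold lower. Sult2b1 had 24 reads with decitabine against 0 without, at least 5.66-fold higher, but 19 of them were in treated 3, 5 in treated 1 and 0 in treated 2, and limma did not call it. It was called higher by edgeR and DESeq2 on recovered reads, with the length trend removed (0.96) and without treated 2 (0.90), and Sult1c2 was called at 0.49 without treated 2. With near-identical libraries added together, which leaves the untreated group as 1 sample assumed to vary like the others, 1 member was called higher and 23 lower, where 13.3% of all genes were called higher and 12.9% lower.

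**Figure D5:**
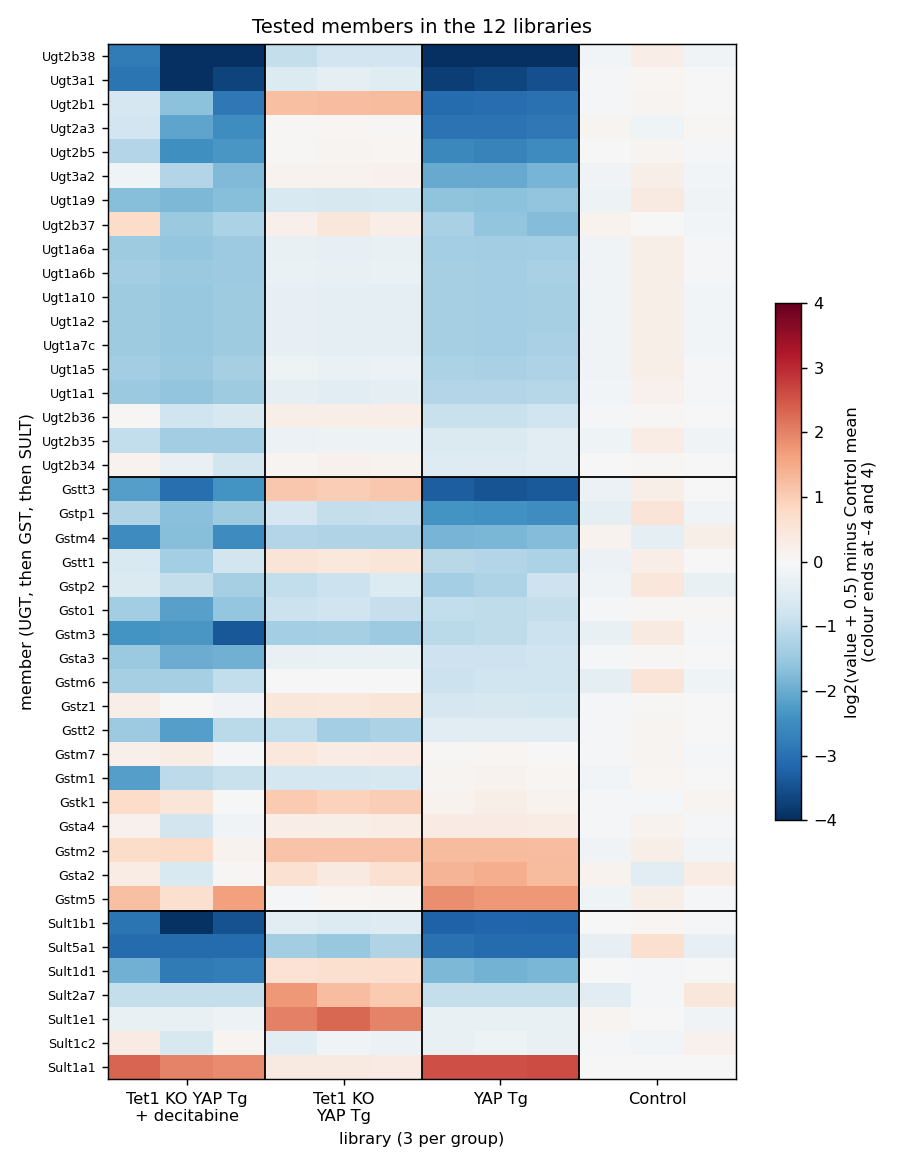
Level of each tested member in each library as the log2 difference from its mean in Control (blue lower, red higher, colours ending at -4 and 4), with members in rows by family and libraries in columns in the order decitabine-treated Tet1 KO YAP Tg, Tet1 KO YAP Tg, YAP Tg and Control. Most UGT rows are low in the decitabine and YAP Tg columns and near white or red in the Tet1 KO YAP Tg columns, and Sult1a1 and Gstm5 are red in the decitabine and YAP Tg columns.

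The comparisons of YAP Tg with Control and of decitabine with no decitabine share no library in their group means, so their calls were set side by side. The calls are not fully independent, because the spread in each fit also drew on libraries of the other comparison. Of the 33 members lower in YAP Tg, 30 (90.9%) were also lower with decitabine and 3 were not called, and these 30 were 83.3% of the 36 members lower with decitabine. The 8 Ugt1a symbols of 1 locus are among these 30. Among all 4731 genes lower in YAP Tg, 55% were lower with decitabine and 4.71% higher. Conversely, 67.1% of all 3881 genes lower with decitabine were lower in YAP Tg. Of the 6 members higher in YAP Tg, Sult1a1 and Gstm5 were higher with decitabine and the other 4 lower, while of all genes higher in YAP Tg 66.2% were higher with decitabine and 7.86% lower. Those 4 were Gsta2, Gsta4, Gstk1 and Gstm2, none of which was called lower once the length trend was removed. The limit also touches the 30 members lower in both. With the trend removed Gstp1 turned positive (0.16) and Ugt2b34 was no longer called (-0.34), and as TPM Gstz1 was not called either (-0.05).

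The members lie partly in clusters, whose counts are given without a test between clusters. The Ugt2 and Sult1 genes Sult1b1, Sult1d1 and Sult1e1 lie among 13 members within 702 kb of chromosome 5 (86889770 to 87591611, mm10), of which 11 were tested. In YAP Tg against Control 10 of these fell and 1 was not called, where 34.5% of all genes fell. All 11 rose for Tet1 KO YAP Tg over YAP Tg, where 33.4% of all genes rose. In Tet1 KO YAP Tg against Control 5 were higher, 2 lower and 4 not called, where 20.2% of all genes were higher and 18.8% lower, and with decitabine 10 fell and 1 was not called, where 27.8% of all genes fell. The 7 Gstm genes lie within 149 kb of chromosome 3 (107895854 to 108044859) and gave 2 higher, 3 lower and 2 not called in YAP Tg against Control, where 36.1% of all genes were higher. In the Gstt cluster of chromosome 10 (75774122 to 75834881), 3 of 4 members were tested and all 3 fell in YAP Tg. Sult1a1, the SULT that rose, lies outside these clusters on chromosome 7.

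The 8 Ugt1a symbols span 164.6 kb of chromosome 1 (88055411 to 88220002) and are one locus with alternative first exons and shared last exons, so the table counts nearly the same reads for each. Reads in excess of the lowest Ugt1a symbol of a library come from the parts a symbol does not share, where the symbols count the same shared part. Ugt1a6b ends at 88218998, before the others, and is counted over fewer bases. Its excess can therefore fall short of its own part, by an amount not measured here. Ugt1a9 had an excess of 0.427 ± 0.274 normalised reads with decitabine, 2.08 ± 0.0970 in Tet1 KO YAP Tg and 0.439 ± 0.0755 in YAP Tg, against 114 ± 59.5 in Control (SD, n = 3 each), so that its own part was near absent outside Control. In the 3 Control libraries the excess of Ugt1a9 was 76.9, 183 and 82.4. Ugt1a1, the bilirubin-conjugating form, had an excess of 61.4 ± 8.11, 141 ± 7.21 and 110.2 ± 4.33 in the same groups, against 188 ± 6.13 in Control, and Ugt1a6b 17.02 ± 6.48, 58.5 ± 0.547 and 15.8 ± 1.37, against 40.4 ± 2.37. In Tet1 KO YAP Tg the mean excess of Ugt1a6b exceeded its Control mean, while that of Ugt1a9 was far below its own.

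The genes listed for the 3 cosubstrates moved with the enzymes in part, and the lists hold genes of breakdown as well as of supply. Of all genes tested, 36.1% rose and 34.5% fell in YAP Tg against Control. For Tet1 KO YAP Tg over YAP Tg these shares were 33.4% and 34%, and with decitabine 32.9% and 27.8%. For UDP-glucuronic acid, 1 gene rose and 3 fell of 4 in YAP Tg against Control, 4 rose for Tet1 KO YAP Tg over YAP Tg, and 1 rose and 1 fell with decitabine. Ugdh, the dehydrogenase that makes UDP-glucuronic acid, averaged 53.4 ± 0.838 normalised reads in YAP Tg and 172 ± 19.0 in Control (log2 difference -1.67), and 7.92 ± 1.23 with decitabine and 90.5 ± 2.94 without (-3.44). Slc35d1, which carries UDP-glucuronic acid into the endoplasmic reticulum, fell in YAP Tg (-1.52), and Ugp2, which makes UDP-glucose, rose (0.27). Of 9 tested glutathione genes, 1 rose and 8 fell in YAP Tg against Control. Gclc, the catalytic subunit of the first step of glutathione synthesis, averaged 153 ± 6.16 in YAP Tg and 660.4 ± 54.2 in Control (-2.10), while Gss, the second step, averaged 98.1 ± 0.807 in YAP Tg and 42.2 ± 2.53 in Control (1.21). For Tet1 KO YAP Tg over YAP Tg 7 rose and 1 fell, and with decitabine 1 rose and 4 fell. Of 8 genes listed for PAPS, 2 rose and 4 fell in YAP Tg against Control. The falls were led by Bpnt1 (-1.12), which clears the product PAP, and Papss2 (-0.85), a PAPS synthase. For Tet1 KO YAP Tg over YAP Tg 4 rose and 4 were not called, and with decitabine 5 rose and 3 fell.

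Of 14 genes for regulators of these families, 3 rose and 10 fell in YAP Tg against Control, where 36.1% of all genes rose and 34.5% fell. The shares of all genes were 33.4% and 34% for Tet1 KO YAP Tg over YAP Tg. They were 20.2% and 18.8% in Tet1 KO YAP Tg against Control, and 32.9% and 27.8% with decitabine. Nr1i3, which encodes CAR, averaged 1.597 ± 0.202 normalised reads in YAP Tg and 58.7 ± 8.32 in Control (log2 difference -4.82, adjusted p = 6.01e-12, limma), and Ppara averaged 96.6 ± 0.819 in YAP Tg and 260.4 ± 14.2 in Control (-1.43). Nfe2l2, which encodes NRF2, rose, with 197 ± 6.60 in YAP Tg and 93.1 ± 2.70 in Control (1.08), and so did Foxa2 (0.54). For Tet1 KO YAP Tg over YAP Tg 12 rose and 1 fell, Nr1i3 by 3.00, and in Tet1 KO YAP Tg against Control 6 were higher and 4 lower, Nr1i3 among the lower at -1.82. With decitabine 1 rose and 9 fell, with Nr1i3 at 0.662 ± 0.177 normalised reads, against 16.2 ± 1.175 without (-3.86). Of 11 NRF2 target genes outside the families, 8 rose and 3 fell in YAP Tg against Control, led by Nqo1 (1.80) and Osgin1 (1.63), with Prdx1 (-0.74) and Txnrd1 (-0.47) among the lower. For Tet1 KO YAP Tg over YAP Tg 2 rose and 8 fell, and with decitabine 7 rose and 4 were not called. The summed level of the list was 1149 to 1170 normalised reads in YAP Tg, against 1230 to 1440 in Control, so that its sum was lower although most of its genes rose.

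Conjugating enzymes outside the 3 families were mixed in YAP Tg against Control, with 4 higher and 6 lower of 13 tested, where 36.1% of all genes rose and 34.5% fell. Those shares were 33.4% and 34% for Tet1 KO YAP Tg over YAP Tg, and 32.9% and 27.8% with decitabine. Nnmt, which methylates nicotinamide, averaged 0.460 ± 0.128 normalised reads in YAP Tg and 23 ± 2.52 in Control (-4.62), and Mgst1, a membrane-bound glutathione transferase, 698 ± 9.30 in YAP Tg and 2541 ± 309.9 in Control (-1.86). Hpgds (2.24), the prostaglandin D synthase of blood cells, and Mgst3 (1.92) rose. Of these 13, 8 rose and 4 fell for Tet1 KO YAP Tg over YAP Tg, and 3 rose and 8 fell with decitabine. Of 4 genes listed as deconjugating enzymes, 2 fell in YAP Tg against Control, Ephx2 (-1.84) and Arsa (-0.52). Ephx2 encodes a soluble epoxide hydrolase, which acts on epoxides and is not itself a deconjugating enzyme. Of 6 exporters of conjugates and drugs, 2 rose and 3 fell. Abcb1a, a drug efflux pump, averaged 99.6 ± 2.95 normalised reads in YAP Tg and 3.18 ± 0.454 in Control (4.77), and Abcb11, the bile salt export pump, 279 ± 6.90 in YAP Tg and 1068 ± 35.2 in Control (-1.93).

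Markers of the cell types of the liver were counted beside the members, which are mainly hepatocyte genes. Over all genes tested, 36.1% rose and 34.5% fell in YAP Tg against Control, and 33.4% and 34% for Tet1 KO YAP Tg over YAP Tg. The shares were 20.2% and 18.8% in Tet1 KO YAP Tg against Control, and 32.9% and 27.8% with decitabine. In YAP Tg against Control, 4 of 6 hepatocyte markers fell and 2 were not called, with Ttr, the transthyretin gene, at -2.31. All 5 measured Kupffer cell and macrophage markers, all 3 neutrophil markers and both tested T and B cell markers rose. Of 6 cholangiocyte markers 3 rose, and their sum was 1666 to 1693 normalised reads in YAP Tg, against 50 to 62.1 in Control, nearly all of it Spp1, the osteopontin gene. The bile duct keratins Krt19 and Krt7 and the channel gene Cftr did not exceed 1.2 normalised reads in the mean of any group. Of 6 stellate cell and fibroblast markers 2 rose and 3 fell, and of 5 endothelial markers 3 rose and 1 fell. For Tet1 KO YAP Tg over YAP Tg, 4 hepatocyte markers rose and 2 fell, all 5 Kupffer cell, 3 neutrophil and 2 T and B cell markers fell, 2 cholangiocyte markers rose and 2 fell, 4 stellate cell markers rose and 3 endothelial markers fell. In Tet1 KO YAP Tg against Control, 2 hepatocyte markers were higher and 3 lower, 1 cholangiocyte and 3 stellate cell markers were higher and 3 endothelial markers lower, and none of the Kupffer cell, neutrophil and T and B cell markers was called. With decitabine, 1 hepatocyte marker rose and 3 fell, the 5 Kupffer cell, 3 neutrophil and 3 tested T and B cell markers all rose, 2 cholangiocyte markers rose and 2 fell, 3 endothelial markers rose and 1 fell, and 3 stellate cell markers fell. None of the 3 kidney markers was in the table, and 3 intestinal markers summed to 12.3 to 30.5 normalised reads with decitabine, 54 to 59.2 in Tet1 KO YAP Tg and 16.9 to 18.2 in YAP Tg, against 57.3 to 65.2 in Control. The part of these cells in the members' changes was not tested.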

How the data were processed

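Gene expression in liver was measured by RNA sequencing in 12 libraries, and another 24 of the 36 samples of the series (methylated DNA, TEAD and TET1 binding and input) are not analysed here. Per the submitters' processing notes the authors used TopHat2, featureCounts and edgeR with the mm10 build, and versions and options are not given in the sources used here. In the 9 libraries without decitabine the deposited values are a normalised signal, in which every non-zero value was a whole multiple of 1 read within 0.02 reads at low counts, and the columns sum to between 846970 and 1184330. In the decitabine libraries the values deposited by the authors are TPM. The table also holds the authors' log2 fold changes, a score of the likelihood ratio and p-values, per the file headers, and these were not used for any result.

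Reads and gene lengths were recovered from TPM for 46 of the 53 members (the other 7 had no decitabine read), within 0.001 of a read. Simulated TPM gave back the exact reads of 93% of genes, and 4 members whose recovered reads were too small by a whole factor (Ugt1a10, Gstp1, Gstm3 and Sult1d1) were corrected by their length. TMM factors set the reads on the scale of the other libraries. All genes with a value of at least 0.5 in 3 libraries were tested with limma (3.58.1, R 4.3.3) with a trend on log2(value + 0.5), which understates changes of low genes. Fold changes are on that scale, p-values were adjusted by Benjamini-Hochberg over all genes tested, tests were two-sided, and calls were made at 0.05. The fit over the 9 libraries served the comparisons without decitabine and the fit over all 12 the decitabine comparison. The test planned for raw counts was not the main test because the columns hold scaled values, and edgeR 4.0.16 and DESeq2 1.42.0 on recovered reads were alternatives, with other scalings, filters, pseudocounts and left-out libraries. Intervals of low counts are exact binomial intervals at 95%, and they and the floor of 3 reads per group cover counting error only. RefSeq promoter windows were read by gene symbol. Figures were drawn with matplotlib 3.10.9.

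The members and gene lists were chosen with earlier results of these data known. Named were the 5 called members of each family and direction with the largest change and a mean of at least 10 in 1 group, the 5 highest of each family in Control, members not called or not tested, and the 2 called genes of each other list with the largest change in each direction, with other members named after their values were seen. Groups came from the labels, and replicate numbers were not used to pair libraries in the main test.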

Additional observations from a re-analysis of the deposited data

How the results depend on the processing

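Adding near-identical libraries together left 7 samples in 1 fit, with YAP Tg and Tet1 KO YAP Tg as 1 sample each, and gave 3 members higher in YAP Tg than in Control, 12 higher and 1 lower in Tet1 KO YAP Tg than in YAP Tg, 1 higher and 0 lower in Tet1 KO YAP Tg than in Control (5 and 7 at an unadjusted p under 0.05, limma), and 1 higher and 23 lower with decitabine than without. Fewer samples enter this fit by construction. The count higher with decitabine was 4 with edgeR, 4 with DESeq2, 4 as TPM and 5 with the length trend removed, the last chosen after seeing the data; the cause was not tested. Without that trend the differences of Gsta2, Gsta4, Gstk1 and Gstp1 with decitabine turned positive, at 0.12, 0.23, 0.15 and 0.16. Counting the Ugt1a locus once, also chosen later, gave 13 lower in Tet1 KO YAP Tg than in Control. Leaving out 1 library at a time, the count higher with decitabine ran between 2 and 4, the other counts stayed within 1.5 times, and Gstm6 in Tet1 KO YAP Tg against Control ran between -0.20 and 0.24. Same-numbered libraries correlated at -0.28 to 0.21 and libraries of unlike number at -0.29 to 0.33. The numbers thus gave no sign of pairing, which the check cannot exclude. With the replicate number as a block, the counts were 6 and 33, 32 and 6, 15 and 20, and 2 and 37 members higher and lower in the 4 comparisons. Other pseudocounts, filters and size factors kept all these counts within 1.5 times. Depth limits the 10 members under 0.936 normalised reads and SULTs with 0 to 3 reads in a group.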

Other observations

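In the authors' deposited table, the log2 fold change of decitabine-treated over untreated Tet1 KO YAP Tg equals the log2 ratio of mean TPM to mean normalised reads up to a near-constant shift. Over 5376 genes, that ratio minus the authors' value had a median of -0.085, with the 1st percentile at -0.105 and the 99th at -0.069. TPM is divided by gene length and normalised reads are not, so these deposited fold changes hold gene length, and none of them was used here.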
